A study of Mus musculus with 12 samples.

Results

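The BCL2 family is the group of proteins that decides whether the outer mitochondrial membrane is opened during apoptosis. The 10 members described here were fixed by name: the effectors Bax and Bak1, the anti-apoptotic genes Bcl2, Bcl2l1 and Mcl1, and the BH3-only genes Bbc3, Pmaip1, Bcl2l11, Bid and Bad. This list was chosen with earlier results of these data known. All 10 were found among the 52636 genes of each count file, and all 10 passed the filter on low counts that left 17970 genes for testing. They were measured by bulk RNA sequencing of 12 tumors of the mouse line 2153L, a genetically engineered model labelled as triple-negative breast cancer and grown after transplantation into the fat pad of the mammary gland in Balbc females. The tumors carried either an empty vector (EV) or P53ERTAM, a p53 protein fused to a tamoxifen-responsive estrogen receptor domain. Each was treated for 8 days with vehicle or with the combination called combo, which was ORIN1001, an inhibitor of the IRE1α RNase, at 150 mg/kg every day, and docetaxel, a microtubule drug, at 20 mg/kg once a week. The 4 groups were EV vehicle, EV combo, P53ERTAM vehicle and P53ERTAM combo, with 3 libraries each. The labels name 1 tumor model, do not say which mice received tamoxifen and do not say how the replicate tumors were derived, so p-values measure only the spread between these libraries.

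In healthy cells the anti-apoptotic members hold the effectors and the BH3-only members in check. BH3-only members are induced or activated by damage, loss of growth signals or stress in the endoplasmic reticulum, and they either occupy the anti-apoptotic members or act on Bax and Bak directly. Active Bax and Bak form pores that release cytochrome c, which assembles the apoptosome with Apaf1 and caspase 9 and starts the proteolysis that dismantles the cell. Among the 10 genes, Bax, Bbc3 (PUMA) and Pmaip1 (NOXA) are textbook transcriptional targets of p53. Much of the control of Mcl1, Bad, Bid and Bcl2l11 (BIM) lies in protein turnover, phosphorylation or cleavage, which RNA levels do not show.

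Libraries held 13484873 to 24424964 counts. The label check ran over both treatments, P53ERTAM against EV: Cdkn1a was higher by a log2 fold change of 2.16 ± 0.23 (SE) and Esr1, whose domain is part of the fusion, by 1.80 ± 0.17. Mdm2 was higher by 0.47 ± 0.09. Trp53 itself differed by 0.28 ± 0.10 (edgeR adjusted p = 0.0336), a call that ended (0.0564 to 0.0829) with any 1 of 6 libraries removed: EV vehicle replicates 1 and 3, EV combo 3, P53ERTAM vehicle 3 and P53ERTAM combo 2 and 3. The 3 EV combo libraries stood apart from the other 9: the noncoding gene Gm26917 took 10.7 to 11.1% of their counts against 0.133 to 1.10%, and protein-coding genes took 80.9 to 81.7% against 86.7 to 95.8%. Levels are given as CPM, the counts relative to library size (scaled by TMM), and comparisons between genes as CPM per kilobase of exon.

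Tissue markers also moved between the groups. The summed level of 6 epithelial markers was 2532 to 3427 CPM with vehicle and 1660 to 2009 with combo in EV tumors, and 1215 to 1675 and 1558 to 1965 in P53ERTAM tumors. Epcam made up much of that sum, at 473 to 1646 CPM over all 12 tumors. The basal keratin Krt5 was at 13.2 to 104, 69.1 to 142, 11.7 to 20.8 and 2.26 to 3.33 CPM in that order of groups. Krt14, also basal, was at 70.3 to 135, 89.7 to 127, 23.3 to 41.1 and 5.88 to 8.05 CPM. Krt8 was instead higher in P53ERTAM combo (173 to 268 CPM) than in P53ERTAM vehicle (113 to 158). Epcam, Cdh1 and Krt18 overlapped between those P53ERTAM groups. For 7 fibroblast markers the sums were 521 to 560, 988 to 1945, 1446 to 3729 and 1321 to 1997 CPM in the same order. The 7 macrophage markers summed to 256 to 548, 324 to 440, 434 to 502 and 1006 to 1452 CPM. Endothelial markers, 6 in number, summed to 37.2 to 75.3, 76.7 to 140, 102 to 158 and 130 to 202 CPM, and 7 T cell markers to 3.39 to 38.1, 2.79 to 6.43, 9.85 to 11.4 and 21.2 to 26.8 CPM. Of 6 B cell markers the sum was 240 CPM in EV vehicle replicate 2 and at most 54.7 in the other libraries. The 4 erythroid markers summed to 2.11 to 5.18, 0.722 to 4.79, 6.54 to 12.6 and 0.242 to 0.433 CPM. Among them Hbb-bt stood at 0.734 to 1.75 CPM in P53ERTAM vehicle and at most 0.456 elsewhere. It thus passed the filter on low counts through P53ERTAM vehicle alone. No marker of these lists was at 0 in all 12 libraries. In bulk tumors fewer cells of a type and less RNA per cell cannot be told apart, and the part that these shifts play in the values of the BCL2 family was not tested.

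P53ERTAM tumors held more transcript of 4 members than EV tumors under both treatments, the anti-apoptotic Bcl2l1 and Mcl1 and the BH3-only Bbc3 and Pmaip1. The share of all genes called higher under both treatments was not counted, so this number of members has no background beside it. Under vehicle, 5 of the 10 members were higher (Bcl2, Bcl2l1, Mcl1, Bbc3 and Pmaip1) and 2 were lower (Bak1 and Bad), among a background of 37.8% of all tested genes called in that comparison, 17.9% higher and 19.8% lower. Under combo, 7 members were higher (Bax, Bak1, Bcl2l1, Mcl1, Bbc3, Pmaip1 and Bid) and none was lower, against a background of 44.1% called, 22.1% higher and 22% lower. Averaged over both treatments, 7 were higher and 1 (Bad) was lower, with 40.9% of all genes called, 20.6% higher and 20.4% lower. The median log2 fold change of the 10 members was 0.31 under vehicle and 0.82 under combo, where that of all tested genes was 0.01 and 0.06. Calls are edgeR quasi-likelihood tests with an adjusted p below 0.05. Among the protein-coding genes, to which all 10 members belong, 15.7% were higher and 24.5% lower under vehicle, and 26.6% higher and 19.5% lower under combo. Under vehicle all 6 epithelial and 2 of 3 tested B cell markers were lower in P53ERTAM tumors, and 5 of 7 fibroblast, 4 of 6 endothelial and 1 of 3 tested erythroid markers were higher. The 3 tested erythroid markers include Hbb-bt, which passed the filter through P53ERTAM vehicle alone. The direction of any call of Hbb-bt under vehicle was thus set in advance. The B cell calls lean on EV vehicle replicate 2. Under combo 6 of 7 macrophage, 4 of 7 T cell, 3 of 6 endothelial, 2 of 4 tested neutrophil, 1 of 7 fibroblast and 1 of 3 B cell markers were higher, and 2 of 6 epithelial and 2 of 3 erythroid markers lower.

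In EV tumors treatment with combo went with lower transcripts of 5 of the 10 members. There Bax, Bak1, Mcl1, Bid and Bad fell and Bcl2 rose, 6 called members of 10 against a background of 39.9% called, 18.8% higher and 21.1% lower. Among protein-coding genes 14% were higher and 25.2% lower. The median of the 10 members was -0.43 on the log2 scale, where that of all genes was -0.07 and that of protein-coding genes -0.13. In P53ERTAM tumors 0 of 10 members were called by edgeR, against a background of 6.28%, 3.3% higher and 2.98% lower. At an unadjusted p below 0.05 there was 1 member, Bak1, and DESeq2 called 0. All 10 fitted values lay above 0 there, between 0.01 and 0.50 (Bax and Bcl2 just below 0 with protein-coding genes alone). Their median was 0.17, beside 0.00 for all genes and 0.06 for protein-coding genes. Of 13911 protein-coding genes, 7912 lay above 0 in the same comparison. The background of that comparison moved with single libraries: 1129 genes were called with all of them, 77 without P53ERTAM combo replicate 1, 96 without replicate 3, 514 without replicate 2, and 121, 183 and 2130 without P53ERTAM vehicle replicates 1, 2 and 3. Without EV vehicle replicate 3 it was 1726. The EV combo libraries, which set the comparison in EV tumors, are those with the different RNA composition. With protein-coding genes alone, which leaves out Gm26917, 5 of the 6 calls in EV tumors held and that of Bax did not. With combo, 5 of 7 fibroblast and 3 of 6 endothelial markers were higher in EV tumors, and 2 of 6 epithelial, 2 of 3 tested B cell and 1 of 7 T cell markers lower. Here too the B and T cell calls lean on EV vehicle replicate 2. In P53ERTAM tumors 7 of 7 macrophage markers were higher, and 2 of 6 epithelial and 3 of 3 tested erythroid markers lower. The erythroid calls include Hbb-bt, which passed the filter through P53ERTAM vehicle alone, so the direction of its call was set in advance.

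The combo effect itself differed between the vectors for 4 members. Bak1, Bad, Bid and Mcl1 had a higher combo effect in P53ERTAM than in EV tumors, against a background of 36% of genes called, 18.8% in this direction and 17.2% in the other. The median difference of the 10 members was 0.60 on the log2 scale, beside 0.13 for all genes and 0.23 for protein-coding genes, of which 23.1% were called in this direction and 11.7% in the other. The combo effects also differed upward for 5 of 7 macrophage, 3 of 6 epithelial, 3 of 7 T cell and 2 of 3 tested B cell markers, and downward for 4 of 7 fibroblast, 2 of 6 epithelial and 3 of 3 tested erythroid markers. The erythroid calls again include Hbb-bt, and the B and T cell values lean on EV vehicle replicate 2. The comparison of the vectors under vehicle shares its EV vehicle libraries with the combo comparison in EV tumors, so a high value there enters both. In a fit of the other 9 libraries, without EV combo, the calls were again 7 for the vectors under vehicle and 0 for combo in P53ERTAM tumors.

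**Figure D1:**
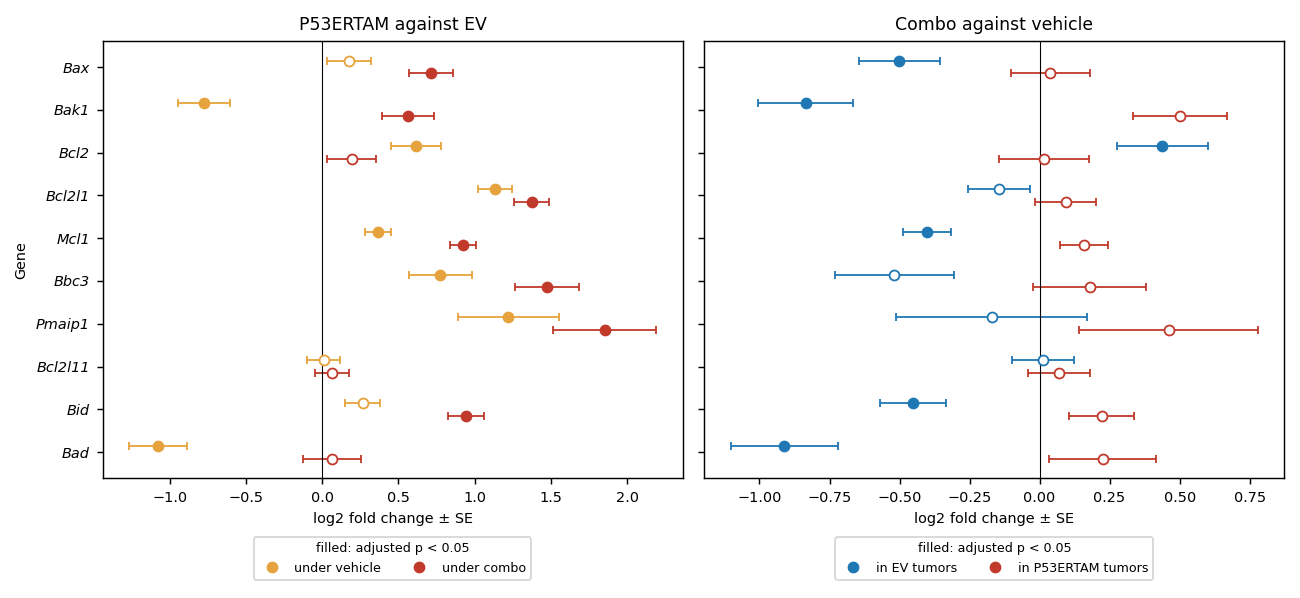
Log2 fold change with its standard error for the 10 members: P53ERTAM against EV tumors on the left (under vehicle and under combo) and combo against vehicle on the right (in EV and in P53ERTAM tumors). Filled points have an adjusted p below 0.05. On the right no P53ERTAM point is filled, while 5 EV points below 0 and 1 above 0 are.

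Promoter sequences from RefSeq (GRCm38.p6, 250 bases before to 50 after each start) were read for 9 of the 10 members, with 15 windows in all. Pmaip1, also a p53 target, was left out of the search, so the motif counts below do not cover it. Windows were searched on both strands for the p53 response-element decamer, GGGCGG (the core bound by SP1), CCAAT (the box bound by NF-Y), CACGTG (the E-box, which reads the same on both strands) and TGATGNAAT (the CHOP and ATF4 composite element), with overlaps allowed. The decamer lay in 1 of the 15 windows, that of Bax, and in 8.36% of 32851 promoters of the same length. GGGCGG lay in 10 windows of 7 members and in 35.7% of all promoters. CCAAT lay in 4 windows (37.4% of all). The E-box lay in 2 windows (7.15% of all) and the composite element in 0 (0.965% of all). A match describes letters and not a site, and the absence of one says only that these letters are not in the window. Printed here are the windows of the p53 target Bax, of the p53 target Bbc3 and of Bcl2l1, the anti-apoptotic member with the highest fold change between the vectors. Each runs 5′ to 3′ in the direction of transcription, with motif matches in capitals.
Bax, chr7:45466849-45467148, minus strand: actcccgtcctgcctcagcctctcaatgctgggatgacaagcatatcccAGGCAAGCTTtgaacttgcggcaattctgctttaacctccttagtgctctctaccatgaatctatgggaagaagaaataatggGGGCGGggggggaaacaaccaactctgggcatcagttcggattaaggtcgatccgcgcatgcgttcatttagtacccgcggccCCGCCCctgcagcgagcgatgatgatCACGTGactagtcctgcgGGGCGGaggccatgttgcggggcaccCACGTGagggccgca
Bbc3, first of 3 windows, chr7:16309333-16309632, plus strand: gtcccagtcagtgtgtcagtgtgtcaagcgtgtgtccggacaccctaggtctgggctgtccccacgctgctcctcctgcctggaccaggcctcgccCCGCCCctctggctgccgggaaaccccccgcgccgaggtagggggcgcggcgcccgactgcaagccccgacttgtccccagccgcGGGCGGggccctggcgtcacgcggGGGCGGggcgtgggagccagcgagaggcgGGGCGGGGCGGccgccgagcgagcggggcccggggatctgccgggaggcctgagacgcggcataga
Bcl2l1, first of 3 windows, chr2:152831679-152831978, minus strand: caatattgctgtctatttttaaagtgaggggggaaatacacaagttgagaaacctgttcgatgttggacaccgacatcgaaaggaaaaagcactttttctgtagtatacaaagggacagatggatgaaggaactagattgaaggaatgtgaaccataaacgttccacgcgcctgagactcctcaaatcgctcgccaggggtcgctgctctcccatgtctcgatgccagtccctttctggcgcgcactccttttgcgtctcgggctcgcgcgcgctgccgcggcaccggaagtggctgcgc
In the Bax window the decamer spans bases -201 to -192 from the start, and the other capitals are 3 GGGCGG matches (1 on the opposite strand) and 2 CACGTG matches. All capitals of the Bbc3 window are GGGCGG matches, 5 in number and 1 of them on the opposite strand. The Bcl2l1 window holds none of the 5 motifs, nor do its other windows or the window of Bak1.

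Per kilobase of exon, Mcl1 was the most abundant member in each of the 12 libraries, at 49.1 to 96.3 CPM per kb. Bcl2l1 ranged from 16.3 to 47.0 and Bak1 from 16.04 to 37.7. Bax (8.31 to 17.9), Bcl2l11 (13.9 to 18.4), Bid (9.76 to 21.2) and Bad (5.12 to 17.6) lay in between. Bcl2 (2.71 to 6.56), Bbc3 (1.72 to 6.08) and Pmaip1 (0.672 to 4.29) were lowest. Raw counts behind these levels ran from 28 to 282 for Pmaip1 and from 64 to 298 for Bbc3, the 2 members whose fold changes had the highest standard errors, and from 2411 to 8159 for Mcl1.

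**Figure D2:**
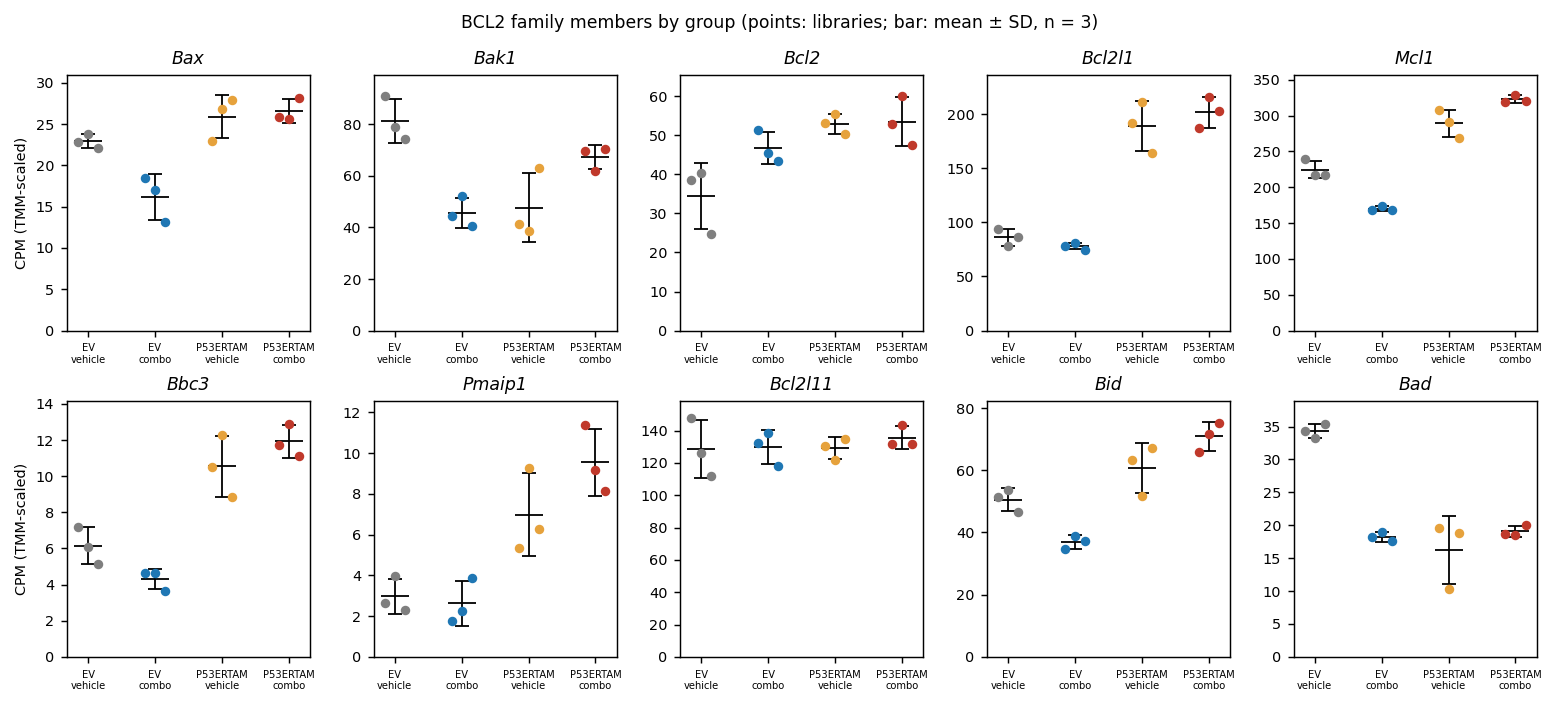
CPM of each member in the 12 libraries, by group, with the mean and SD of 3 libraries. Both P53ERTAM groups lie above both EV groups for Bcl2l1, Mcl1, Bbc3 and Pmaip1, Bcl2l11 is level in all 4 groups, and Bad is high in EV vehicle. The share of all genes with such a separation of the vectors was not counted.

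Bax, one of the 2 pore-forming effectors (chr7:45461697-45466898, GRCm38, minus strand), was lowest in EV combo tumors. It stood at 22.8, 23.8 and 22.1 CPM in EV vehicle and at 18.5, 17.1 and 13.1 in EV combo. P53ERTAM tumors gave 23.001, 26.8 and 27.9 under vehicle and 25.9, 25.7 and 28.2 under combo. The 3 EV combo libraries lay below the other 9, which overlapped between neighbouring groups. Combo lowered Bax in EV tumors by a log2 fold change of -0.50 ± 0.14 (SE; adjusted p = 0.0146), and P53ERTAM exceeded EV under combo by 0.72 ± 0.14 (adjusted p = 0.00158). Under vehicle the vectors differed by 0.18 ± 0.14 (adjusted p = 0.355), and averaged over both treatments by 0.45 ± 0.10 (adjusted p = 0.00319). The combo call in EV tumors did not hold with EV vehicle replicate 2 removed (adjusted p = 0.0584), without EV combo replicate 3 (0.0660), with protein-coding genes alone (0.0534) and with GC and length offsets (0.147), and the averaged call was lost with those offsets (0.0586). The difference of the combo effects was 0.54 ± 0.20 (adjusted p = 0.0522) and was called without EV combo replicate 1 (0.0379) or without P53ERTAM vehicle replicate 3 (0.0447). Gm45808, on the same strand, shares 12.2% of the Bax exon bases and had 0 counts in every library. How reads in that stretch were counted is not given.

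Bak1, the other effector (chr17:27019810-27029009, minus strand), went in opposite directions in the 2 vector comparisons. It stood at 90.9, 78.9 and 74.4 CPM in EV vehicle against 44.4, 52.1 and 40.6 in EV combo. In P53ERTAM tumors it stood at 41.1, 38.6 and 63.0 under vehicle and at 69.6, 61.9 and 70.6 under combo. EV vehicle lay above all other groups, and P53ERTAM vehicle replicate 3 reached into the range of the combo-treated P53ERTAM tumors. P53ERTAM was below EV under vehicle by -0.77 ± 0.17 (adjusted p = 0.00339) and above EV under combo by 0.56 ± 0.17 (adjusted p = 0.0166). Combo lowered Bak1 in EV tumors by -0.83 ± 0.17 (adjusted p = 0.00216), and in P53ERTAM tumors the value was 0.50 ± 0.17 (adjusted p = 0.0894). The 2 combo effects differed by 1.34 ± 0.24 (adjusted p = 0.00141), the highest such difference among the 10 members. Without P53ERTAM vehicle replicate 3 the combo effect in P53ERTAM tumors was 0.76 and called (adjusted p = 0.00789). The call between vectors under combo was lost without EV combo replicate 1 (adjusted p = 0.0509) or 3 (0.0654), without P53ERTAM combo replicate 1 (0.0502) or 3 (0.0553), and with GC and length offsets (0.0698). Of its exon bases 14.8% are shared with Ggnbp1 on the opposite strand, which had 34 to 87 counts per library.

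Bcl2l1, which encodes BCL-XL (chr2:152780668-152831728, minus strand), separated the vectors most clearly among the anti-apoptotic genes. It stood at 94.1, 78.0 and 86.6 CPM in EV vehicle and at 78.4, 80.6 and 74.9 in EV combo. P53ERTAM tumors gave 192, 211 and 165 under vehicle and 187, 216 and 203 under combo. All 6 P53ERTAM libraries lay above all 6 EV libraries. The log2 fold change between vectors was 1.13 ± 0.11 under vehicle (2.19-fold, adjusted p = 3.25e-05) and 1.37 ± 0.11 under combo (2.59-fold, adjusted p = 2.97e-06). Combo itself gave -0.15 ± 0.11 in EV and 0.09 ± 0.11 in P53ERTAM tumors (adjusted p = 0.315 and 0.643), with overlapping libraries in both. Both calls were kept under every alternative tried.

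Mcl1, an anti-apoptotic gene whose short-lived protein binds BIM, NOXA and BAK (chr3:95658788-95663176, plus strand), differed in every comparison except combo in P53ERTAM tumors. Its level was 239, 218 and 218 CPM in EV vehicle and 168, 174 and 168 in EV combo. In P53ERTAM tumors it was 307, 291 and 269 under vehicle and 319, 329 and 320 under combo. The 4 groups did not overlap. Combo lowered Mcl1 in EV tumors by -0.40 ± 0.09 (adjusted p = 0.00278). P53ERTAM exceeded EV by 0.36 ± 0.09 under vehicle (adjusted p = 0.00504) and by 0.92 ± 0.09 under combo (adjusted p = 7.51e-06). In P53ERTAM tumors combo gave 0.16 ± 0.09 (adjusted p = 0.274), and the difference from the effect in EV tumors was 0.56 ± 0.12 (adjusted p = 0.00377).

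Bcl2, the founding member, which follicular lymphomas overexpress (chr1:106538178-106714274, minus strand), was lowest in EV vehicle. It stood at 38.6, 40.2 and 24.8 CPM there and at 51.5, 45.5 and 43.5 in EV combo. In P53ERTAM tumors it stood at 53.1, 55.4 and 50.4 under vehicle and at 52.9, 60.1 and 47.5 under combo. EV vehicle did not overlap the other 3 groups, and EV vehicle replicate 3 was the lowest library of all. P53ERTAM exceeded EV under vehicle by 0.62 ± 0.16 (adjusted p = 0.00989), while under combo the value was 0.19 ± 0.16 (adjusted p = 0.352). The rise with combo in EV tumors, 0.44 ± 0.16, had an adjusted p of 0.0460. That call was lost with GC and length offsets (0.0960), without EV vehicle replicate 3 (0.28 on the log2 scale, adjusted p = 0.110), without EV combo replicate 1 (0.151), 2 (0.0790) or 3 (0.0608), without P53ERTAM vehicle replicate 2 (0.0521) or 3 (0.0571), and without P53ERTAM combo replicate 1 (0.0503).

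Bbc3, which encodes PUMA, a BH3-only protein that binds all anti-apoptotic members (chr7:16308393-16318205, plus strand), was higher in P53ERTAM tumors under both treatments. It stood at 7.20, 6.10 and 5.16 CPM in EV vehicle and at 4.63, 4.62 and 3.65 in EV combo. P53ERTAM tumors gave 10.5, 12.3 and 8.86 under vehicle and 11.7, 12.9 and 11.1 under combo. All P53ERTAM libraries lay above all EV libraries. The log2 fold change between vectors was 0.77 ± 0.21 under vehicle (adjusted p = 0.0103) and 1.47 ± 0.21 under combo (2.77-fold, adjusted p = 0.000149). With GC and length offsets the vehicle call was lost (0.53, adjusted p = 0.0605). Combo gave -0.52 ± 0.21 in EV tumors (adjusted p = 0.0663), where the libraries did not overlap, and 0.18 ± 0.20 in P53ERTAM tumors (adjusted p = 0.628). The difference of these effects was 0.70 ± 0.29 (adjusted p = 0.0780).

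Pmaip1, which encodes NOXA, a BH3-only protein that binds MCL1, had the highest fold change between vectors of the 10 members and the lowest counts. It stood at 2.66, 3.95 and 2.29 CPM in EV vehicle and at 1.78, 2.24 and 3.87 in EV combo. P53ERTAM tumors gave 5.35, 9.25 and 6.30 under vehicle and 11.4, 9.18 and 8.12 under combo. All P53ERTAM libraries lay above all EV libraries, and the treatments overlapped within each vector. P53ERTAM exceeded EV by 1.22 ± 0.33 under vehicle (adjusted p = 0.0114) and by 1.85 ± 0.34 under combo (3.61-fold, adjusted p = 0.000791). Removing P53ERTAM vehicle replicate 2 ended the vehicle call (0.97, adjusted p = 0.0579). Combo gave -0.17 ± 0.34 in EV and 0.46 ± 0.32 in P53ERTAM tumors (adjusted p = 0.721 and 0.402).

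Bid, the BH3-only protein that caspase 8 cleaves to link death receptors to mitochondria (chr6:120891930-120916853, minus strand), was lowest in EV combo. Its group means had the same order as those of Bax, Bcl2l1, Mcl1, Bbc3 and Pmaip1. Its level was 51.5, 53.7 and 46.5 CPM in EV vehicle and 34.7, 38.8 and 37.4 in EV combo. In P53ERTAM tumors it was 63.2, 51.8 and 67.0 under vehicle and 65.8, 71.6 and 75.2 under combo. EV combo lay below all other groups. Combo lowered Bid in EV tumors by -0.45 ± 0.12 (adjusted p = 0.00830), and P53ERTAM exceeded EV under combo by 0.94 ± 0.12 (1.92-fold, adjusted p = 5.57e-05). Under vehicle the vectors differed by 0.26 ± 0.12 (adjusted p = 0.0889), which was called with protein-coding genes alone (0.33, 0.0278), with GC and length offsets (0.33, 0.0299) and without P53ERTAM vehicle replicate 2 (0.37, 0.0233). The combo effects differed by 0.68 ± 0.16 (adjusted p = 0.00726). Of the exon bases of Bid 17.7% are shared with Bcl2l13 on the opposite strand, which had 2897 to 6660 counts per library, and the strand setting of the counting is not given.

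Bad, the BH3-only protein that survival kinases phosphorylate (chr19:6941861-6951898, plus strand), was high in EV vehicle and low in the other 3 groups. It stood at 34.4, 33.2 and 35.4 CPM in EV vehicle and at 18.2, 19.001 and 17.5 in EV combo. P53ERTAM tumors gave 19.6, 10.3 and 18.8 under vehicle and 18.7, 18.4 and 20.0 under combo. EV vehicle did not overlap any other group, and P53ERTAM vehicle replicate 2 was the lowest library. Bad was lower in P53ERTAM than in EV tumors under vehicle by -1.08 ± 0.19 (2.11-fold lower, adjusted p = 0.000967), and combo lowered it in EV tumors by -0.91 ± 0.19 (1.88-fold lower, adjusted p = 0.00253). Between vectors under combo the value was 0.06 ± 0.19 (adjusted p = 0.810). The combo effects differed by 1.14 ± 0.27 (adjusted p = 0.00619). Of its exon bases 25.8% are shared with Gpr137 on the opposite strand, with 300 to 743 counts per library, and reads of the 2 genes may not be separable.

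Bcl2l11, which encodes BIM (chr2:128126038-128162547, plus strand), passed no test. Its level was 148, 126 and 112 CPM in EV vehicle and 132, 139 and 118 in EV combo. The P53ERTAM tumors held 131, 122 and 135 with vehicle and 132, 144 and 132 with combo. All 4 groups overlapped. The 4 log2 fold changes lay between 0.01 and 0.07 with standard errors of 0.11, and the smallest adjusted p of the 4 was 0.650.

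Summed by role, the 3 anti-apoptotic members reached 85.0 to 94.6 CPM per kb with vehicle and 70.2 to 73.5 with combo in EV tumors, and 120 to 138 and 140 to 150 in P53ERTAM tumors, with no overlap between the groups. The 2 effectors gave 45.0 to 52.2, 25.2 to 32.5, 31.7 to 43.9 and 42.0 to 47.2 CPM per kb. The 5 BH3-only members gave 47.9 to 54.4, 37.2 to 40.7, 44.2 to 51.6 and 54.1 to 56.8 CPM per kb. Thus the P53ERTAM groups stood apart from the EV groups in the anti-apoptotic sum. The effector sum had its highest mean in EV vehicle, whose libraries overlapped those of P53ERTAM combo. The ratio of the anti-apoptotic sum to that of the other 7 members was 0.853 to 0.918 with vehicle and 1.01 to 1.13 with combo in EV tumors, and 1.26 to 1.78 and 1.39 to 1.52 in P53ERTAM tumors. These sums and ratios describe RNA and carry no test.

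**Figure D3:**
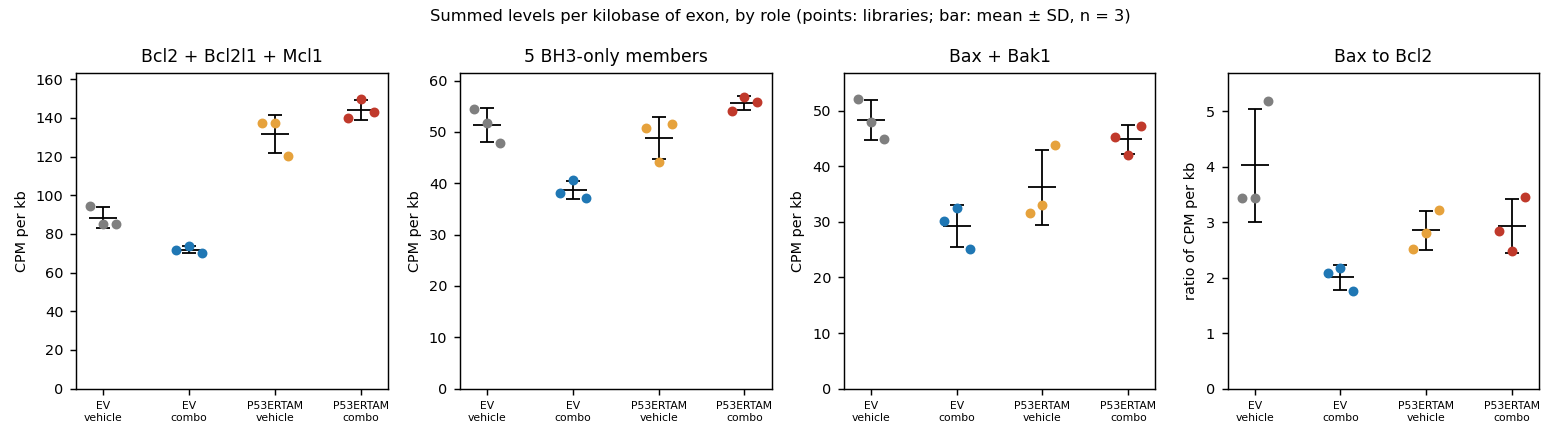
CPM per kilobase of exon summed over the anti-apoptotic, BH3-only and effector members, and the ratio of Bax to Bcl2, in each library, with the mean and SD of 3 libraries. The anti-apoptotic sum is 120 to 150 in P53ERTAM libraries and 70.2 to 94.6 in EV libraries, and the Bax to Bcl2 ratio is lowest in EV combo.

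The ratio of Bax to Bcl2, per kilobase, was 3.43, 3.44 and 5.19 in EV vehicle and 2.08, 2.18 and 1.75 in EV combo. It was 2.52, 2.81 and 3.22 in P53ERTAM vehicle and 2.85, 2.48 and 3.45 in P53ERTAM combo. EV combo lay below the other 3 groups. Within the anti-apoptotic sum the share of Mcl1 was 73.9 to 74.8% with vehicle and 68.4 to 70.0% with combo in EV tumors, and 62.0 to 65.5% and 64.2 to 66.7% in P53ERTAM tumors. The share of Bcl2l1 was 20.0 to 22.2%, 23.2 to 23.9%, 29.9 to 33.5% and 29.2 to 31.4% in the same order. Of the BH3-only sum, the p53 targets Bbc3 and Pmaip1 together made up 6.87 to 8.42% and 7.43 to 8.56% in the EV groups and 12.7 to 20.97% and 14.9 to 18.2% in the P53ERTAM groups. Bad made up 31.5 to 36.8% in EV vehicle and 11.6 to 23.8% in the other 3 groups. BIM transcripts made up 39.6 to 43.1% in EV combo and 29.0 to 34.4% elsewhere.

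Of 15 further family genes, 13 were tested. Between vectors 2 were higher and 0 lower under vehicle and 3 higher and 1 lower under combo, and combo lowered 2 in EV and 1 in P53ERTAM tumors. Bcl2a1b, 1 of the 3 higher under combo, passed the filter through P53ERTAM combo alone (0.953 to 1.57 CPM, at most 0.570 elsewhere). With no filter on low counts its edgeR call was lost (adjusted p = 0.0533), so it adds no support to that count. The shares called were 15.4% and 30.8% between vectors (under vehicle and combo) and 15.4% and 7.69% for combo (in EV and P53ERTAM tumors), where those of all genes were 37.8%, 44.1%, 39.9% and 6.28%. Hrk and Bcl2l10 had at most 6 and 4 counts in any library. The mitophagy receptor Bnip3l was higher in P53ERTAM tumors under vehicle (0.68 ± 0.17, adjusted p = 0.00725) and combo (0.95 ± 0.17, adjusted p = 0.000704). Bcl2l2 (BCL-W, anti-apoptotic) was higher under vehicle (0.43 ± 0.12, adjusted p = 0.0149), a call lost without P53ERTAM vehicle replicate 2 (0.0580), and was the family gene called for combo in P53ERTAM tumors, where it fell by 0.57 on the log2 scale (adjusted p = 0.0210). Of the P53ERTAM libraries, the omission of vehicle replicate 1 (0.0676) or 2 (0.0682) ended it, as did that of combo replicate 1 (0.103) or 3 (0.111). In EV tumors combo lowered Bcl2l13 (-0.41 ± 0.10, adjusted p = 0.00621) and the effector-like Bok (-0.77 ± 0.22, adjusted p = 0.0127), the latter lost without EV combo replicate 1 (0.0512) or 3 (0.0505). Bcl2l12 was lower in P53ERTAM tumors averaged over treatments (-0.50 ± 0.14, adjusted p = 0.0104). For Bcl2l14 the combo effects differed by 1.45 ± 0.43 (adjusted p = 0.0189), lost without P53ERTAM vehicle replicate 1 (0.0516). Bcl2a1a, Bcl2a1b and Bcl2a1d, near-identical anti-apoptotic genes that can share reads, stood at 0.736 to 3.33 CPM in P53ERTAM combo and at 0 to 1.40 elsewhere, and are uncertain one by one. Under combo, the vector calls of Bcl2a1b (1.86), Bcl2l12 (-0.58) and Bcl2l13 (0.28) were lost in 5, 5 and 11 of 19 alternatives, and the difference of combo effects of Bcl2l13 (0.42) in 15. The BH3-only genes Bmf and Bik passed no test, nor did Bnip3.

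Downstream of the family, 18 genes of the mitochondrial arm (apoptosome, execution of cell death, inhibitor of apoptosis proteins and their antagonists, and mitochondrial channel and intermembrane proteins) were read from a list. In EV tumors combo lowered 7 of them and raised 0, with a list median of -0.29, where that of all genes was -0.07. The share lowered was 38.9%, against 21.1% of all and 25.2% of protein-coding genes, and the share called in either direction was 38.9% against 39.9%. The mitochondrial channels Vdac1 (-0.90 ± 0.10, adjusted p = 9.88e-05), Vdac3 (-0.68 ± 0.11, adjusted p = 0.000655) and Vdac2 (-0.52 ± 0.13, adjusted p = 0.00791) and the caspase inhibitor Xiap (-0.44 ± 0.11, adjusted p = 0.00600) were among these. Combo in P53ERTAM tumors gave 1 higher (Birc3, which encodes cIAP2) and 1 lower (Vdac1), and neither call was stable. The Birc3 call ended without P53ERTAM vehicle replicate 1, combo replicate 1 or combo replicate 3 (adjusted p = 0.0750 to 0.0891). That of Vdac1 ended without EV vehicle replicate 2, EV combo replicate 1 or 2, or any P53ERTAM library (0.0558 to 0.199). The combo effects differed upward for 5 genes and downward for 0, including Vdac3 (0.73 ± 0.16, adjusted p = 0.00392) and Vdac2 (0.76 ± 0.19, adjusted p = 0.00827). Between vectors, 1 gene was higher and 7 were lower under vehicle, and 4 were higher and 3 lower under combo (44.4% and 38.9% called, against 37.8% and 44.1% of all genes). For the difference of the combo effects 27.8% were called, against 36%. The initiator Casp9 was higher in P53ERTAM tumors averaged over treatments (0.70 ± 0.08), and Aifm1 (-1.47 ± 0.09), which encodes AIF, Parp1 (-0.92 ± 0.08), a caspase substrate, and Birc5 (-0.78 ± 0.09), which encodes survivin, were lower.

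**Figure D4:**
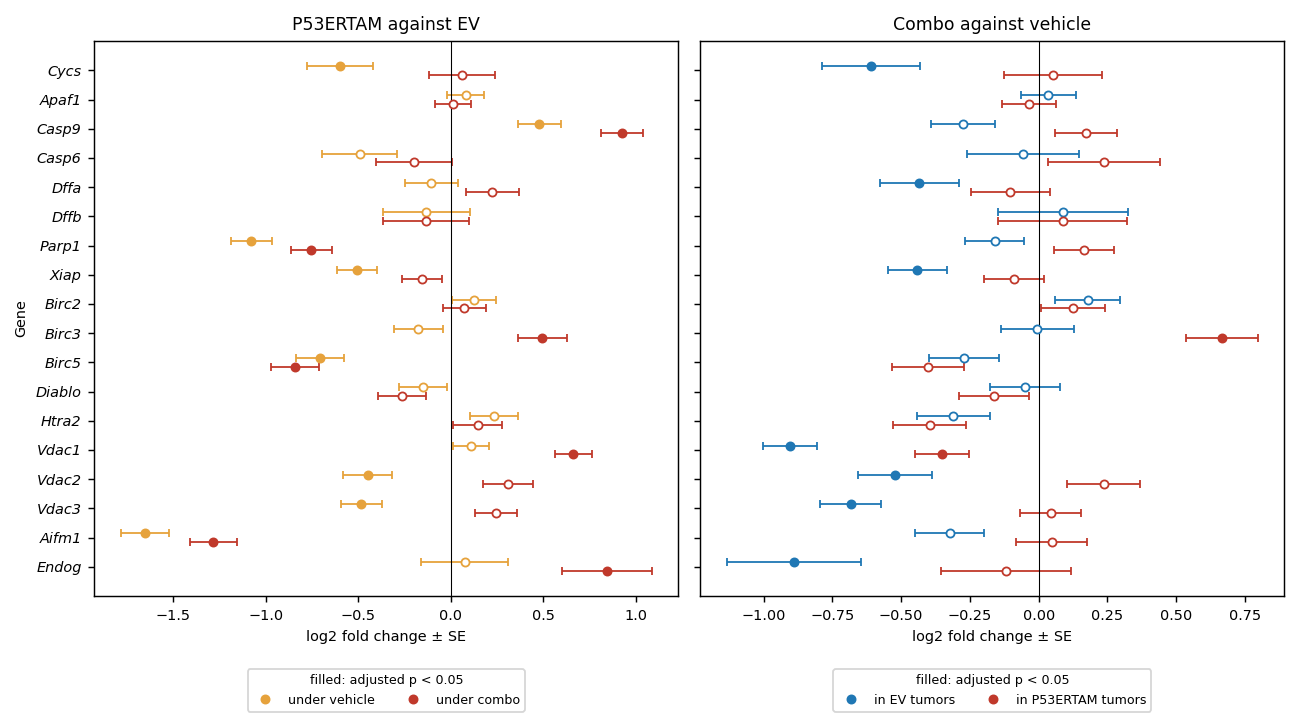
Log2 fold change with its standard error for 18 genes of the mitochondrial arm of apoptosis, in the same layout as for the family members: P53ERTAM against EV on the left and combo against vehicle on the right. Filled points have an adjusted p below 0.05. Vdac2 and Vdac3 lie at -0.52 and -0.68 for combo in EV tumors and are not called for combo in P53ERTAM tumors.

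Upstream, 11 death receptor genes gave 0 higher and 4 lower for combo in EV tumors, 2 and 0 for combo in P53ERTAM tumors, 1 and 3 between vectors under vehicle and 5 and 0 under combo. The shares called, 36.4%, 18.2%, 36.4% and 45.5%, stood beside 39.9%, 6.28%, 37.8% and 44.1% of all genes. The 2 called with combo in P53ERTAM tumors, the ligand Tnfsf10 (TRAIL) and the receptor Fas, lost their calls without any 1 of the P53ERTAM libraries other than vehicle replicate 3 (adjusted p = 0.0514 to 0.137). Casp8, the protease that cleaves BID, was lower with combo in EV tumors (-0.46 ± 0.11, adjusted p = 0.00467), and its combo effects differed by 0.64 ± 0.15 (adjusted p = 0.00616). The caspase 8 regulator Cflar was higher in P53ERTAM tumors under vehicle (0.36 ± 0.10) and combo (0.52 ± 0.10). Fas was higher between vectors under combo (0.90 ± 0.23, adjusted p = 0.00767). Of 10 p53-induced death genes outside the family, 2 were higher and 2 lower between vectors under vehicle and 6 were higher and 2 lower under combo, against 37.8% and 44.1% of all genes called. Zmat3 (0.71 ± 0.10), Phlda3 (0.80 ± 0.12) and Trp53inp1 (1.69 ± 0.22) were higher averaged over treatments, while Pidd1, which encodes the PIDDosome scaffold, was lower (-1.15 ± 0.13). Perp, a p53 target of epithelial junctions, was lower between vectors under vehicle (-0.97 ± 0.16).

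A set of 10 regulators of the members' transcripts or proteins was read as a further list, and 3 were higher and 4 lower between vectors under each treatment, against 37.8% (vehicle) and 44.1% (combo) of all genes called. Huwe1 (-0.93 ± 0.06), a ubiquitin ligase for MCL1, and Usp9x (-1.01 ± 0.09), a deubiquitinase of MCL1, were both lower in P53ERTAM tumors averaged over treatments. Foxo3, a transcription factor of Bcl2l11 and Bbc3, was higher (0.73 ± 0.09), as was Trib3, a target of ATF4 and CHOP (2.05 ± 0.18). Atf4 was lower with combo in EV tumors (-0.59 ± 0.10, adjusted p = 0.000744) and higher between vectors under combo (0.83 ± 0.10).

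For each called member, the protein-coding genes whose log2 CPM followed it most closely over the 12 libraries were found among 11964 genes. Pearson's r was 0.988 for Bax with Fth1, 0.981 for Bcl2l1 with Rhob, 0.985 for Bad with Vma21, 0.980 for Mcl1 with Kctd10 and 0.977 for Bbc3 with Rab11fip5. It was 0.976 for Bbc3 with Casp9, 0.975 for Bid with Msrb1, 0.968 for Bcl2 with Matn4, 0.961 for Bak1 with 2410015M20Rik and 0.960 for Pmaip1 with Vsir. These points share groups and libraries, and the best of many genes is high by selection, so the values are a description with no p.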

How the data were processed

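Total RNA of 12 tumors was prepared with Direct-zol reagents and made into stranded ribosome-depleted libraries, per the labels' protocols. Per the submitters' processing notes the tools were FastQC, fastp, STAR and featureCounts with GRCm38.p5 as the genome; versions, annotation release, strand setting and read-pair handling are not given in the sources used here. The authors deposited raw counts for each gene in the featureCounts layout, without normalization. Of 52636 genes, 52489 were matched to a symbol and 147 were not. Even values made up 66.3 to 71.7% of small counts (1 to 20) and 49.2 to 52.1% of counts over 200, a pattern that counting each mate separately would give.

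Groups came from the sample titles. Counts were fitted in edgeR 4.0.16 (R 4.3.3) with filterByExpr (17970 of 31622 genes with counts, at least 99.8% of counts kept), TMM factors of 0.941 to 1.05, and the robust quasi-likelihood F-test on 4 group means (8 residual degrees of freedom, biological coefficient of variation 0.221). The contrasts compared the treatments within each vector and the vectors within each treatment, averaged the latter, and took the difference of the combo effects. Benjamini-Hochberg adjustment ran over all tested genes, with a threshold of 0.05. CPM are TMM-scaled, and means are over 3 libraries. The fit was also run on counts simulated from its own dispersions, with few genes changed and no difference in RNA composition between groups. That run does not check the calls given here. Alternatives were size factors by the DESeq2 method, DESeq2 1.42.0, no filter, a filter of 1 CPM in 3 libraries, protein-coding genes alone, a replicate block, a fit without EV combo libraries, each library left out and, chosen after seeing the data, offsets for GC content and length (mgcv 1.9.3).

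All 10 members were named in every comparison, with the label-check genes, the other family genes, up to 4 called genes of smallest p per further list and, of the 2 genes of most similar profile per called member, those printed. The members and lists were chosen with earlier results of these data known. Some genes of the mitochondrial list are not reported here. Replicate numbers did not pair the libraries: the correlation of deviations between same-numbered libraries was -0.149 to 0.211 over 18 pairs. No 2 replicates agreed within sampling noise.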

Additional observations from a re-analysis of the deposited data

Results flagged for a closer look

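Between the vectors, the effect of combo differed by the interaction test for 4 of the 10 members, each in the direction of a higher effect in P53ERTAM tumors, where 36% of all genes were called, 18.8% in that direction. The share of members called, 40%, was thus near that of all genes. Among protein-coding genes 34.8% were called, 23.1% in that direction. On the log2 scale the differences (P53ERTAM minus EV) were 1.34 for Bak1, 1.14 for Bad, 0.68 for Bid and 0.56 for Mcl1. The combo effects behind them were -0.83 in EV and 0.50 in P53ERTAM tumors for Bak1, -0.91 and 0.23 for Bad, -0.45 and 0.22 for Bid, and -0.40 and 0.16 for Mcl1. All 4 calls held under each alternative scaling, filter, tool and left-out library that was tried. They rest on the EV combo libraries, in which Gm26917 took 10.7 to 11.1% of counts, and they held with protein-coding genes alone, which leaves out Gm26917. With all libraries or a changed tool, filter or scaling, the smallest differences were 1.16 for Bak1, 0.96 for Bad, 0.46 for Bid and 0.38 for Mcl1. Mitochondrial transcripts also took 0.703 to 0.957% of counts in EV combo against 1.43 to 2.16% in the other libraries. What such differences in composition contribute was not tested.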

How the results depend on the processing

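Of 60 values (10 members in 6 comparisons), 32 were called, and 26 of these calls held under every alternative; the other 6 are given with their genes above, and no called value changed sign. The number of members called for combo in P53ERTAM tumors was 1 instead of 0 with no filter on low counts (Bak1) and 0 to 1 over the fits that left out 1 library each. With the replicate block the numbers called were 6, 0, 7, 7, 4 and 8, as without it, for combo in EV, combo in P53ERTAM, vectors under vehicle, vectors under combo, the difference of the combo effects and the vector average. With protein-coding genes alone they were 5, 0, 8, 7, 4 and 8, and with GC and length offsets 4, 0, 7, 6, 4 and 7. The number of all genes called for combo in P53ERTAM tumors was 1129, against 2245 by DESeq2 and 627 with EV combo omitted, and that for the difference of the combo effects was 6473, against 4086 with protein-coding genes alone.

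Among uncalled values the sign changed for 9. With protein-coding genes alone these were Bax (-0.012) and Bcl2 (-0.038) for combo in P53ERTAM tumors, Bcl2l11 (-0.042) and Bad (-0.047) for vectors under combo, and Bcl2l11 (-0.12) for the difference of effects. With the offsets they were Bcl2 (-0.025) for combo in P53ERTAM tumors, Bad (-0.097) for vectors under combo and Bcl2l11 (-0.012) for the difference. Leaving out libraries gave -0.036 to 0.099 for Bax, -0.072 to 0.099 for Bcl2 and -0.012 to 0.39 for Bad (combo in P53ERTAM tumors), -0.57 to 0.12 for Pmaip1 and -0.049 to 0.14 for Bcl2l11 (combo in EV tumors), -0.058 to 0.13 for Bcl2l11 (vectors under vehicle) and -0.063 to 0.12 for its difference of effects. The cause of these changes was not tested. The fewest counts were those of Pmaip1 (28 to 282) and Bbc3 (64 to 298), where counting error and the spread between tumors were not separated.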
